A study of Mus musculus with 36 samples.

Results

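The libraries described here are 6 RNA libraries of mouse embryonic fibroblasts (MEFs), taken by the headings of their columns in the deposited expression table: 3 headed CRE and 3 headed GFP, all headed as methionine-deprived. They are 6 of the 24 MEF libraries and of the 36 libraries of the series, whose other 12 are livers. All MEFs came from 1 line with floxed Vps15 alleles (Vps15f/f), in which Cre recombinase removes the flanked piece of the gene. The CRE cells were transduced with adeno-CRE, are labelled Vps15KO, and were kept for 4 h in methionine-free DMEM. The GFP cells were transduced with adeno-GFP, are labelled WT, and were deprived in the same way. Both thus carry the floxed alleles and an adenovirus. The columns headed basal, used below for comparison, belong to the same 2 kinds of cells in basal medium (high-glucose DMEM without serum), and the remaining groups had methionine returned for 1 h or 4 h after the deprivation. The labels name 1 cell line and do not say whether the 3 libraries of a group came from separate cultures, so the p-values measure the spread between these libraries, which may be technical. Polyadenylated RNA was sequenced, and all 32266 genes of the table were considered, of which 13914 had a mean of at least 1 log2 unit above the lowest value and were tested. By heading, the comparison asks which transcripts differ without Vps15 while methionine is missing.

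Vps15, encoded by Pik3r4, is the regulatory subunit that holds the lipid kinase Vps34 (Pik3c3) in the class 3 phosphoinositide 3-kinase. This complex makes phosphatidylinositol 3-phosphate on membranes, and different partners direct it to autophagosomes or to endosomes. Methionine is both a building block of protein and the source of S-adenosylmethionine, the donor of methyl groups. Cells short of an amino acid stop most translation and translate the transcription factor ATF4, which raises genes for amino acid uptake, amino acid synthesis and tRNA charging.

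The headings can be read in a second way, and the comparison is stated under both. The names of the MEF libraries in the labels carry numbers from 1 to 24, which run through WT and then Vps15KO within each medium. The columns of the table run through all 4 media under GFP and then through all 4 under CRE. If the columns held the libraries in the order of their numbers, the columns headed CRE and methionine-deprived would hold libraries 16, 17 and 18, which are Vps15KO cells after 1 h of replenishment. The columns headed GFP and methionine-deprived would hold libraries 4, 5 and 6, which are Vps15KO cells in basal medium. Under this second reading the comparison would not set genotypes against each other: it would be methionine-replenished against basal medium, within Vps15KO cells. Each CRE minus GFP difference of the deprived columns would then be a difference of 1 h replenished minus basal. That of the basal columns would be the same step within WT cells. Those of the columns headed 1 h and 4 h would be 4 h replenished minus methionine-deprived, within WT and within Vps15KO cells respectively. The files and labels used here hold no other record of which library a column contains, no library was reassigned, and CRE and GFP below name column headings.

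Values are the deposited log2 values after a variance-stabilizing transformation, differences are CRE minus GFP on that scale, and ± after a difference is its standard error. The 6 libraries held 20403779 to 21101063 counts each, within a range of 19345029 to 21245006 over all MEF libraries. Mitochondrially encoded transcripts took 1.43 to 1.47% of counts under CRE and 1.57 to 1.66% under GFP. CRE library 3 at 4 h, which is outside the compared groups but enters the shared estimate of spread, stood apart with 0.644%. Several fibroblast markers were abundant in all 6 libraries. Vim, the highest, stood at 15.87, 15.88 and 15.92 under CRE and at 16.43, 16.34 and 16.32 under GFP. Others were not: Dcn averaged 7.10 and 7.12, and Lum 6.34 and 6.75, under CRE and GFP. Thy1 and Fap did not pass the filter. Summed over 14 fibroblast markers, the level was 7810 to 7996 CPM (counts scaled to the library total) under CRE and 9947 to 10680 under GFP, and 2 of 12 tested markers were higher and 8 lower under CRE. In bulk RNA, fewer cells of a type and less RNA per cell cannot be told apart. Markers of several other cell types stayed low. Epithelial genes summed to 1.04 to 1.38 CPM under CRE and 0.882 to 1.16 under GFP. Macrophage genes summed to 13.9 to 16.4 CPM under CRE and 14.6 to 16.8 under GFP, with Tyrobp at 0. Fat cell markers summed to 8.62 to 9.35 CPM under CRE and 11.6 to 12.5 under GFP, where of 2 tested Fabp4 was lower (−0.58) and Pparg higher (0.44), and Lep, Cfd and Lpl were at 0 in all 6 libraries. Skeletal muscle markers summed to 4.62 to 6.22 CPM under CRE and 4.90 to 5.40 under GFP, with Myf5, Ckm and Mymk at 0, and hepatocyte markers to 0.762 to 0.997 under CRE and 0.962 to 1.33 under GFP, with Ttr and Fgb at 0. Smooth muscle markers, which fibroblasts also express, were not low and summed to 1599 to 1681 CPM under CRE and 1466 to 1541 under GFP. The highest, Acta2, averaged 14.74 under CRE and 14.68 under GFP. Endothelial genes summed to 30.4 to 31.7 CPM under CRE and 27.2 to 30.1 under GFP. Neural genes summed to 219 to 228 CPM under CRE and 246 to 250 under GFP, and 6 of these 10 genes passed the filter. The highest were Nes (10.89 under CRE and 11.38 under GFP), Sox2 (10.6 and 10.1) and Map2 (9.26 and 10.08). The part of these levels in the results was not tested.

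Most of the transcriptome differed between the headings. Of 13914 tested genes, 4457 were higher under CRE (32.0% of tested genes) and 4260 lower (30.6%) at an adjusted p under 0.05 (limma, Benjamini-Hochberg). The differences were mostly small: their median size was 0.239 log2 units, and 228 of the called genes were higher and 89 lower by at least 1 log2 unit. The libraries of the groups did not overlap in 9576 genes, 68.8% of those tested. With all libraries brought to a common median, which moved the median difference to −0.08, the split became 3582 higher and 5449 lower. Small differences of either sign therefore hang on the scaling, and the named changes below are read against that shift.

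**Figure D1:**
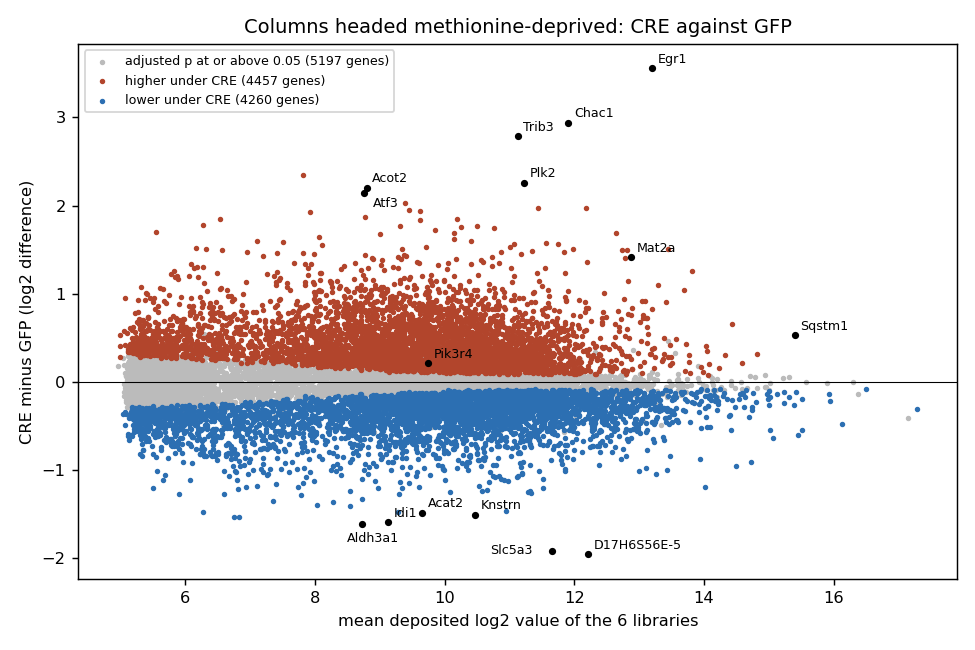
Each point is 1 of 13914 tested genes, with its mean deposited log2 value over the 6 libraries on the x axis and its CRE minus GFP difference in log2 units on the y axis; colours mark the 4457 genes higher and the 4260 lower under CRE, and black points are named. Egr1 lies highest at 3.56, D17H6S56E-5 lowest at −1.96, and Pik3r4 sits close to 0 at 0.21.

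The gene named by the labels was read first. Pik3r4 (chromosome 9, 105642995 to 105687655, GRCm38.p6) stood at 9.74, 9.90 and 9.93 under CRE and at 9.63, 9.69 and 9.60 under GFP. The groups did not overlap and the columns headed CRE were the higher ones, by 0.21 ± 0.05 (limma adjusted p = 0.000557). The flanked piece is not named in the labels, so a total over all exons cannot tell whether it was lost. Under the second reading this difference would lie between media within Vps15KO cells. That reading puts the difference between Vps15KO and WT into 4 pairs of neighbouring groups of columns, and Pik3r4 was lower in the presumed Vps15KO member of all 4, with differences of −0.27 in basal medium (headed GFP deprived against GFP basal, limma adjusted p = 0.000219), −0.17 in deprivation (GFP 4 h against GFP 1 h, adjusted p = 0.00886), −0.28 at 1 h (CRE deprived against CRE basal, adjusted p = 9.82e-05) and −0.27 at 4 h (CRE 4 h against CRE 1 h, adjusted p = 0.000175).

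The partners of Vps15 moved in different directions. Pik3c3, the kinase itself, stood at 10.02, 10.05 and 10.10 under CRE and at 10.41, 10.48 and 10.34 under GFP, a difference of −0.35 ± 0.05 (limma adjusted p = 1.37e-07). Becn1, the scaffold shared by both complexes, was lower at −0.19 (adjusted p = 0.00069). Atg14, which directs the kinase to autophagosomes, stood at 10.36, 10.46 and 10.38 under CRE against 9.75, 9.67 and 9.64 under GFP, higher by 0.71 ± 0.06 (adjusted p = 7.13e-13). Its companion Nrbf2 was higher by 0.62, Uvrag of the endosomal complex by 0.44, Ambra1 by 0.28 and the inhibitory partner Rubcn by 0.22. Rubcnl differed by 0.04 and was not called (adjusted p = 0.764). Thus 6 of 9 genes of the complex were higher and 2 lower, beside 32.0% and 30.6% of all tested genes. In each of these called genes the libraries of the groups did not overlap, as in 68.8% of all tested genes.

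The largest rises included members of the early response and ATF4 lists. Egr1, an early response transcription factor (chromosome 18, 34861207 to 34864956), stood at 15.02, 14.98 and 14.94 under CRE and at 11.40, 11.40 and 11.48 under GFP. All CRE libraries lay more than 3 log2 units above all GFP libraries, a difference of 3.56 ± 0.04 (limma adjusted p = 1.88e-34). Chac1, a glutathione-degrading enzyme and ATF4 target (chromosome 2, 119351242 to 119354326), stood at 13.39, 13.40 and 13.35 under CRE and at 10.46, 10.32 and 10.55 under GFP, higher by 2.94 ± 0.05 (adjusted p = 7.99e-28). Trib3, a pseudokinase that ATF4 induces and that in turn restrains it, stood at 12.48, 12.52 and 12.55 under CRE against 9.66, 9.73 and 9.81 under GFP, higher by 2.79 (adjusted p = 1.68e-29). The groups of both genes were far apart and the replicates tight. Next came the stress kinase Plk2 (2.26), the mitochondrial thioesterase Acot2 (2.20), the transcription factor Atf3 (2.15), Snhg15, a noncoding host of a small nucleolar RNA (2.03), the AP-1 factor Junb (1.98), the growth regulator Myc (1.98), the clock repressor Nfil3 (1.95), the stress protein gene Gadd45b (1.94) and the cytokine signal inhibitor Socs2 (1.87). Acot2 has a near-identical neighbour, Acot1, and how reads were split between such copies is not given, so its value is uncertain.

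The largest falls were shallower. D17H6S56E-5, a transcript of chromosome 17 (34996678 to 35000774), stood at 11.24, 11.19 and 11.25 under CRE and at 13.16, 13.16 and 13.24 under GFP, a difference of −1.96 ± 0.04 (limma adjusted p = 6.08e-27). Slc5a3, an inositol transporter, stood at 10.83, 10.70 and 10.57 under CRE against 12.65, 12.66 and 12.53 under GFP, a difference of −1.91 (adjusted p = 4.84e-10). Its span overlaps that of Mrps6, from which its reads may not be separable. The aldehyde dehydrogenase gene Aldh3a1 differed by −1.61, the spindle and kinetochore gene Knstrn by −1.50, the nuclease gene Ankle1 by −1.27, the mitotic cyclin gene Ccnb2 by −1.25, the WNT antagonist gene Dkk2 by −1.25 and the chemokine gene Cx3cl1 by −1.24. Idi1, Acat2 and Hmgcs1, also among these 12, belong to sterol metabolism and are described below. Of the 32 ranked or preselected genes, 10 overlap another annotated gene, and the strand setting of the counting is not given.

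**Figure D2:**
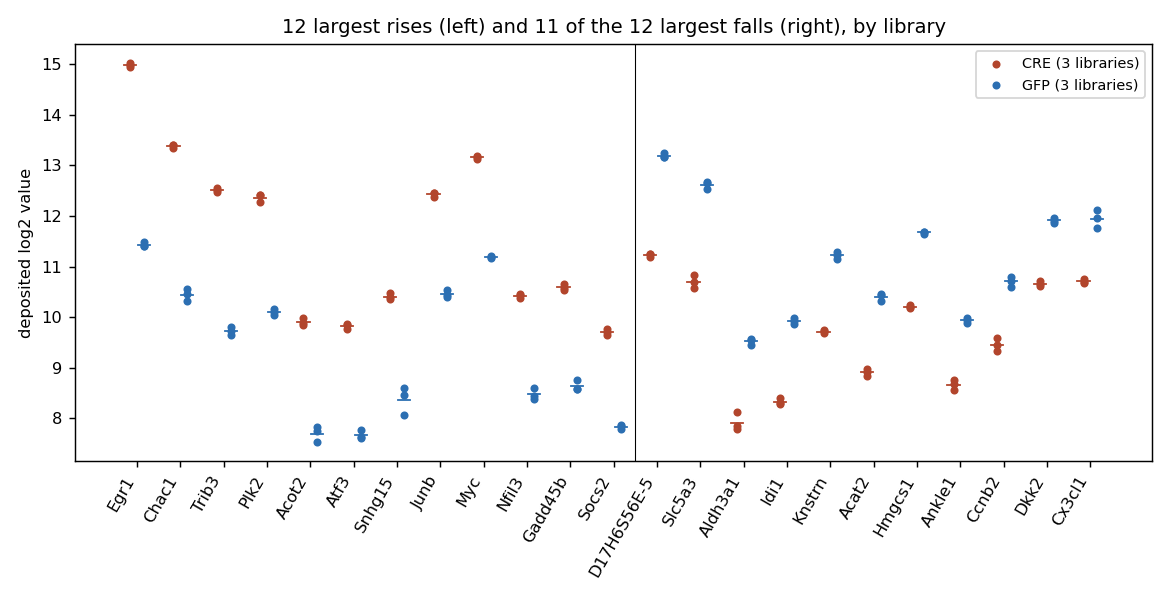
Points are the deposited log2 values of the 3 CRE and 3 GFP libraries for the 12 largest rises (left) and 11 of the 12 largest falls (right), with a bar at each group mean. Groups without overlap were a condition of the ranking, and 68.8% of all tested genes have them. Egr1 shows the widest gap (14.98 against 11.42 on average).

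Most genes of the ATF4 response were higher. Of 57 tested members, 50 were higher and 3 lower, with a median difference of 0.83 against −0.0026 over all tested genes, and against 32.0% and 30.6% called in each direction overall. Atf4 itself stood at 13.82, 13.87 and 13.84 under CRE and at 12.71, 12.74 and 12.79 under GFP, higher by 1.09 ± 0.04 (limma adjusted p = 5.43e-21). Asns, asparagine synthetase, stood at 12.95, 12.94 and 12.98 under CRE against 11.91, 11.93 and 12.01 under GFP, higher by 1.00 (adjusted p = 8.46e-20). Ddit3, the CHOP transcription factor, was higher by 1.46 ± 0.06, though its span overlaps that of Mars1 and Mbd6. No library of either heading crossed over in these genes. Amino acid carriers were among the strongest: Slc1a4 was higher by 1.56, the leucine carrier Slc7a5 by 1.51 and its heavy chain Slc3a2 by 1.15. The serine and one-carbon genes followed, with the phosphoserine phosphatase Psph higher by 1.04, the mitochondrial folate enzymes Mthfd2 by 0.97 and Shmt2 by 0.75 and the folate carrier Slc19a1 by 1.20. Of 17 tested one-carbon genes, 11 were higher and 3 lower.

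A short DNA motif illustrates this group. ATF4 with a C/EBP partner binds sequences that contain TGATGNAA, and the 3 promoters below are shown because they hold it and their genes rose. Each runs from 250 bases before to 50 after the start site, 300 bases in all, on the gene's own strand, from RefSeq (GRCm38.p6), with the match in capitals. In Chac1 (chr2:119350992-119351291, plus strand) the match starts at −193, in Atf3 (chr1:191183284-191183583, minus strand) at −110, both as the reverse complement, and in Asns (chr6:7693160-7693459, minus strand) at −23.
Chac1: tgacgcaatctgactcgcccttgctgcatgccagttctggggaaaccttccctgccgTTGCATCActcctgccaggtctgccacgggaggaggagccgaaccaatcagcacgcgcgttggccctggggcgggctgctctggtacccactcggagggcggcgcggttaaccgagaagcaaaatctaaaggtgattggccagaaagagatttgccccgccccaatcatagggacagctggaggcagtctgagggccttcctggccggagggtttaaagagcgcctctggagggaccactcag
Atf3: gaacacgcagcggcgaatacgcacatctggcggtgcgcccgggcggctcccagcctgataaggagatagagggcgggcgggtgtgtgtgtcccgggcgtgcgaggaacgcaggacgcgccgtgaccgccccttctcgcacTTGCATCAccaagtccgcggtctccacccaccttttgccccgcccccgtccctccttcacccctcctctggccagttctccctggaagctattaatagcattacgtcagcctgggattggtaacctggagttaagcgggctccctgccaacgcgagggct
Asns: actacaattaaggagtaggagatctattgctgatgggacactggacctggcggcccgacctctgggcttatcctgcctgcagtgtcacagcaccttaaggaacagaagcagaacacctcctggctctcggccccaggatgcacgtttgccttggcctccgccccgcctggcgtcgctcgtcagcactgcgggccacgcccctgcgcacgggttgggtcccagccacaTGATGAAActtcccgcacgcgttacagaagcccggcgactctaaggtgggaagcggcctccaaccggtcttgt
Of the 50 ATF4-list genes that were higher, 40 matched a RefSeq promoter by symbol, and 15 of these (37.5%) held the motif on either strand. Counted by promoter, the motif was in 31.9% of 47 of this list and in 3.97% of all 32851 promoters of the same length. The list names genes of the ATF4 response, so this share describes the list and not the rise. Members not called higher were not compared. The match is a description of the letters and not evidence of binding.

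Sterol synthesis moved the other way. Of 27 tested genes of cholesterol synthesis and uptake, 25 were lower and 1 higher, with a median of −0.95. Over all tested genes 30.6% were lower and 32.0% higher. Hmgcs1, the HMG-CoA synthase (chromosome 13, 119690351 to 119708260), stood at 10.20, 10.19 and 10.25 under CRE and at 11.68, 11.65 and 11.69 under GFP, a difference of −1.46 ± 0.04 (limma adjusted p = 3.97e-23). Idi1, an isomerase of the same pathway, stood at 8.29, 8.41 and 8.30 under CRE against 9.87, 9.92 and 9.98 under GFP, a difference of −1.59 (adjusted p = 7.82e-19). These were the lower columns without overlap. Acat2, a cytosolic thiolase at the head of the pathway, differed by −1.48 and the farnesyl diphosphate synthase gene Fdps by −1.11. Fatty acid genes were mixed: of 20 lipogenesis genes 13 were lower, among them Elovl6 (−0.97) and the desaturase gene Scd2 (−0.87), and 5 higher, among them Dgat2 of triglyceride synthesis (1.04) and Mid1ip1, an activator of acetyl-CoA carboxylase (0.86). With libraries at a common median the number of higher lipogenesis genes became 2.

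The sterol-regulated factor SREBP2 binds sites that include CACCCCAC. The Hmgcs1 promoter (chr13:119690101-119690400, plus strand, same window and source) is shown as the sterol gene with a match and the smallest p, and its match starts at −136.
Hmgcs1: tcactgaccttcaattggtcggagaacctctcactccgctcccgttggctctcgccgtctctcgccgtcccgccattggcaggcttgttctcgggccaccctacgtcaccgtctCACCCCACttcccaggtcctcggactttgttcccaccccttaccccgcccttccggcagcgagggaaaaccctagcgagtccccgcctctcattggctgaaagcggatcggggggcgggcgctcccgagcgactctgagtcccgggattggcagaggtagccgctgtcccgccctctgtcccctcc
The motif, searched on both strands, was in 2 of 18 matched sterol genes that were lower (11.1%), Acat2 and Hmgcs1, and in 3.30% of all genes with a promoter in the table. Counted by promoter, it was in 9.52% of 21 and in 2.87% of all. It stands beside the ATF4 motif in 23 of all promoters and shares letters with it in 1. The sterol shares likewise describe the list and not the fall. A promoter without the motif lacks only these letters in this window.

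Most early response genes were higher. These are induced within minutes by growth factors or stress without new protein. Of 39 tested, 29 were higher and 8 lower, with a median of 0.65, beside 32.0% and 30.6% of all tested genes. Junb stood at 12.45, 12.46 and 12.38 under CRE against 10.53, 10.43 and 10.39 under GFP (1.98 ± 0.05, limma adjusted p = 5.31e-26). Myc stood at 13.19, 13.17 and 13.13 under CRE against 11.18, 11.17 and 11.21 under GFP (1.98 ± 0.05, adjusted p = 2.56e-24). Both pairs of groups were clear of each other by more than 1 log2 unit. The 8 lower members included Dusp6 (−0.86) and Spry4 (−0.51), feedback inhibitors of the ERK pathway, and Jun (−0.20). These 3 were picked after their values were seen.

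Ribosome production genes and ribosomal proteins went in opposite directions. Of 48 nucleolar ribosome biogenesis genes, 45 were higher and 1 lower, with a median of 0.44. Under the main fit, 32.0% of all tested genes were higher and 30.6% lower. Rrp12 (0.93), Gnl3 (0.91) and Tsr1 (0.89), which act in the processing of ribosomal RNA or its particles, had some of the smallest p, and Nop2, an rRNA methyltransferase, was higher by 0.65. Of 56 cytosolic ribosomal protein genes, 0 were higher and 42 lower, with a median of −0.19. Rpl24 stood at 12.06, 11.99 and 11.95 under CRE against 12.70, 12.83 and 12.85 under GFP, a difference of −0.80 ± 0.06 (limma adjusted p = 8.13e-11). Of 64 nuclear genes of oxidative phosphorylation, 1 was higher and 47 lower (median −0.21), led by Uqcrh of complex III (−0.98). Both of these last groups are short, abundant genes with many processed copies in the genome, and how multiply mapped reads were counted is not given. Of the 13 mitochondrially encoded genes 2, ATP8 and COX3, were higher (0.79 and 0.78, limma adjusted p = 0.0378 and 0.0416) and 0 lower. COX1 stood at 16.97, 16.93 and 16.95 under CRE and at 17.36, 17.34 and 17.39 under GFP, without overlap, but its difference of −0.41 ± 0.21 was not called (adjusted p = 0.102). These counts depended on the fit: without CRE library 3 at 4 h 6 were higher and 2 lower, with only the compared libraries 6 and 3, with edgeR 5 and 2 and with DESeq2 3 and 2. Without the filter, or with any 1 of the 6 libraries left out, 0 were higher, and without CRE library 1 there was 1 lower.

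Most cell cycle genes were lower. Of 52 cell cycle genes 39 were lower and 5 higher, with a median of −0.50. Over all tested genes 30.6% were lower and 32.0% higher. Plk1, the mitotic kinase, stood at 10.57, 10.52 and 10.62 under CRE against 11.65, 11.60 and 11.71 under GFP, a difference of −1.08 ± 0.05 (limma adjusted p = 1.97e-18). Top2a, the topoisomerase of chromosome segregation, stood at 12.55, 12.53 and 12.43 under CRE against 13.50, 13.51 and 13.52 under GFP (−1.01 ± 0.05, adjusted p = 1.2e-18). Nusap1 (−1.14) and Bub1b (−1.07), of the spindle and its checkpoint, lay beside them, again with no overlap. The 5 higher members, named after their values were seen, were Mybl2 (0.63), Cdt1 (0.51), Cdc6 (0.41), Ccne1 (0.37) and E2f7 (0.30). Cdt1 and Cdc6 license replication origins, and Ccne1 is the cyclin E gene. Of 28 p53 targets, 16 were higher and 5 lower: Cdkn1a, the p21 inhibitor of cyclin-dependent kinases, stood at 10.62, 10.74 and 10.67 under CRE against 9.51, 9.27 and 9.40 under GFP (1.28 ± 0.06, adjusted p = 1.56e-18), and Sesn2, a leucine sensor upstream of mTORC1, was higher by 1.62.

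**Figure D3:**
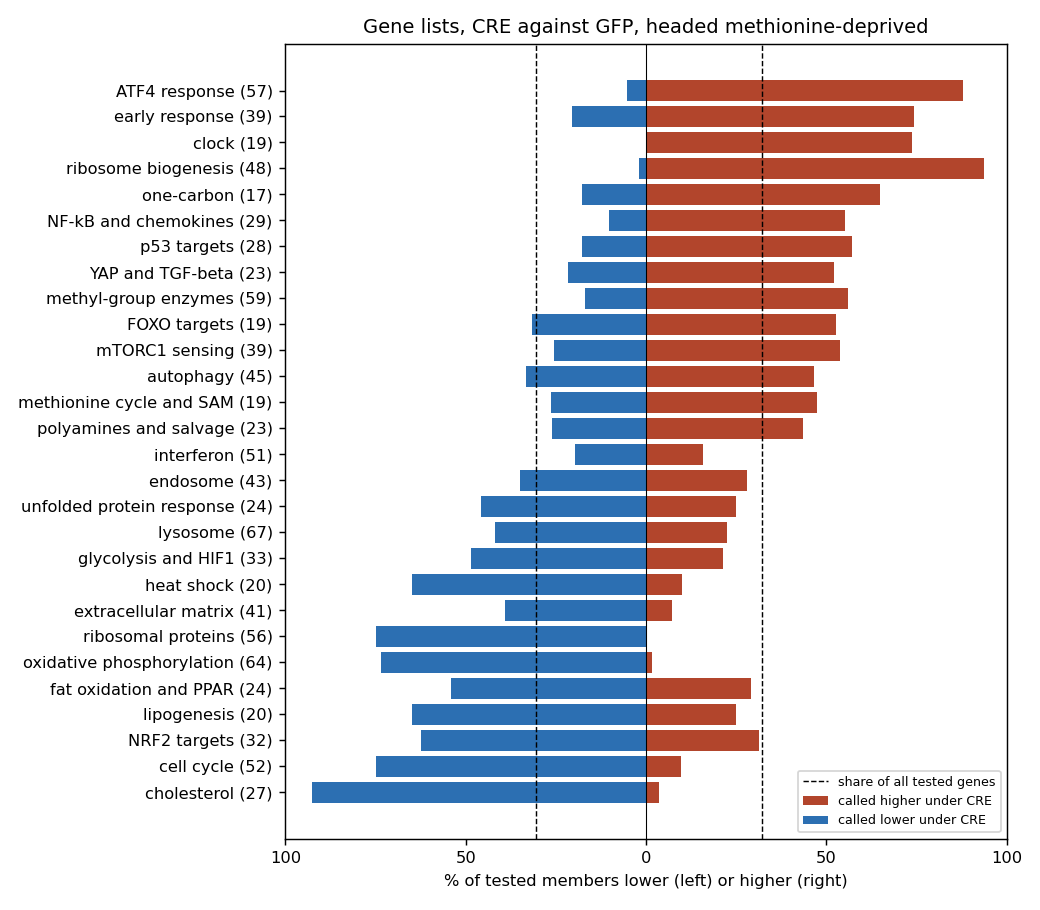
Bars give the percent of tested members of each gene list (number tested in brackets) called higher (right) or lower (left) under CRE, and dashed lines the share over all tested genes (32.0% and 30.6%). Lists are ordered by median difference, with the ATF4 response (50 of 57 higher) at the top and cholesterol genes (25 of 27 lower) at the bottom.

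The methionine cycle itself changed unevenly. Mat2a makes S-adenosylmethionine in most tissues, and its transcript is known to be stabilised when S-adenosylmethionine runs low. It stood at 13.63, 13.58 and 13.55 under CRE and at 12.11, 12.19 and 12.22 under GFP, higher by 1.42 ± 0.15 without overlap (limma adjusted p = 2.96e-07). Its span overlaps Ggcx and Particl. Cth of the transsulfuration route was higher by 1.48 and Mtrr, which reactivates methionine synthase, by 0.80. Methionine synthase itself, Mtr, differed by −0.10 and was not called. The adenosine kinase gene Adk differed by −0.34. In all, 9 of 19 tested members were higher and 5 lower, beside 32.0% and 30.6% of all tested genes. With libraries at a common median the lower count was 8. Across the headings Mat2a did not follow the word deprived: it averaged 13.59 ± 0.04 (SD, n = 3) in CRE deprived and 13.60 ± 0.02 in CRE basal columns, and 12.17 ± 0.05 in GFP deprived and 12.34 ± 0.11 in GFP basal columns. Its highest means were 13.89 and 13.77 in the columns headed GFP 1 h and GFP 4 h, which the second reading calls methionine-deprived. That reading calls the columns headed CRE basal and CRE deprived, which were nearly as high, 1 h replenished. Which reading holds was not tested.

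Polyamines draw on the same donor. Odc1, the first enzyme of their synthesis, stood at 13.05, 13.01 and 13.07 under CRE against 12.47, 12.50 and 12.62 under GFP (0.52 ± 0.05, limma adjusted p = 4.74e-11), and spermidine synthase Srm was higher by 0.56. Mtap, which salvages methionine from the by-product of that synthesis, was lower at −0.47. The list had 10 higher and 6 lower members of 23, beside 32.0% and 30.6% of all tested genes. Of 59 enzymes that add or remove methyl groups, 33 were higher and 10 lower (median 0.17): Prmt6, an arginine methyltransferase, was higher by 1.05, the demethylase Kdm4a by 0.63 and Wtap, of the RNA adenosine methyltransferase complex, by 0.57, while the histone H3 lysine methyltransferase Ehmt2 was lower at −0.53.

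Autophagy and lysosome genes had no common direction. Of 45 autophagy genes 21 were higher and 15 lower, beside 32.0% and 30.6% of all tested genes. Sqstm1, the receptor p62 that autophagy consumes, stood at 15.62, 15.67 and 15.70 under CRE against 15.15, 15.11 and 15.16 under GFP, higher by 0.53 ± 0.03 (limma adjusted p = 2.21e-15). Atg101 of the initiating kinase complex was higher by 0.86 and Wipi2, which reads phosphatidylinositol 3-phosphate at forming autophagosomes, by 0.62. The mitophagy receptor Bnip3l was lower at −0.47. Of 67 lysosome genes 15 were higher and 28 lower: the proton pump subunit Atp6v1b2 was higher by 0.52 and another, Atp6v1a, lower at −0.42, with the lipase Lipa at −0.56 and the glucuronidase Gusb at −0.40. Of 43 endosomal and phosphoinositide genes 12 were higher and 15 lower, near the shares of all tested genes. Among them Mtm1, a phosphatase that removes the phosphate Vps34 adds, was higher by 1.31. Of 39 genes of amino acid sensing by mTORC1, 21 were higher and 10 lower, with Mios (0.88) and Nprl3 (0.60) of the GATOR complexes higher and Castor2, of the arginine-sensing CASTOR pair, lower (−0.75).

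Oxidative, heat and metal responses differed from one another. Counts in this paragraph stand beside 32.0% higher and 30.6% lower over all tested genes. More NRF2 targets were lower than higher, 20 against 10 of 32. Hmox1, heme oxygenase, stood at 13.47, 13.48 and 13.51 under CRE against 11.82, 11.76 and 11.82 under GFP (1.69 ± 0.05, limma adjusted p = 2.08e-24). Nqo1, a quinone reductase, stood at 9.92, 9.99 and 9.98 under CRE against 11.23, 11.19 and 11.19 under GFP (−1.23 ± 0.05, adjusted p = 1.94e-20). Each gene separated the headings completely, in opposite directions. Thioredoxin reductase Txnrd1 (0.92) and Osgin1 (1.27) were higher. Heat shock genes were mostly lower, 13 of 20 against 2 higher, with the chaperones Hspa8 at −0.91 and Hsph1 at −0.83. Of 7 zinc genes 5 were tested, and Slc30a10 and Slc39a4 did not pass the filter: Slc30a1, which exports zinc, was higher by 1.65, the metallothioneins Mt2 by 1.32 and Mt1 by 0.83 and their activator Mtf1 by 0.57, while the importer Slc39a10 was lower at −0.77. Of 24 unfolded protein response genes 6 were higher, among them Herpud1 (1.77), Dnajb9 (1.09) and Xbp1 (0.86), and 11 lower, among them the disulfide isomerase gene Pdia4 (−0.37).

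The remaining lists were smaller or mixed, and their counts stand beside 32.0% higher and 30.6% lower over all tested genes. Of 19 clock genes 14 were higher and 0 lower, with Nfil3 (1.95), Ciart (1.93) and Nr1d1 (1.51) first. Of 29 NF-kB targets and chemokines 16 were higher and 3 lower, including Relb (1.02) and Csf1 (0.90). Of 23 YAP and TGF-beta targets 12 were higher and 5 lower, with Ajuba at 1.57, and of 19 FOXO targets 10 were higher and 6 lower, with Txnip at 1.35. Of 33 glycolysis and HIF1 genes 7 were higher and 16 lower; Ndrg1 (1.40) and hexokinase Hk2 (0.93) were higher. Of 24 fat oxidation genes 7 were higher and 13 lower, and Acot2 is in this list. Matrix genes were lower more often than higher, 16 against 3 of 41, and Col3a1, a fibrillar collagen, stood at 14.01, 14.03 and 14.02 under CRE against 15.03, 15.00 and 14.90 under GFP (−0.96 ± 0.06, limma adjusted p = 8.54e-13). Interferon genes gave 8 higher and 10 lower of 51, fewer than the background in both directions, and with only the 6 compared libraries in the fit these counts became 19 and 18.

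The pattern was next set against the columns headed basal, which share no library with the deprived ones. There 4127 genes were higher under CRE (29.7% of tested genes) and 3986 lower (28.6%). Of the 8717 genes called in the deprived columns and the 8113 called in the basal ones, 6859 were called in both, 6833 of them in the same direction. The overlap was 78.7% of the deprived calls and 84.5% of the basal calls. The ATF4 list had 51 higher and 3 lower members in the basal columns (median 0.89) and the cholesterol list 1 and 25 (median −0.77). In the columns headed 1 h and 4 h these medians were −0.38 and −0.38 for the ATF4 list and 0.07 and 0.24 for the cholesterol list. Chac1, for one, differed by 3.02 in basal, 2.94 in deprived, −2.80 in 1 h and −2.32 in 4 h columns. For Chac1 and these 2 list medians the sign in the columns headed 1 h and 4 h was opposite to that in the basal and deprived ones. This did not hold for every gene: Pik3r4 differed by 0.23 in basal, 0.21 in deprived, 0.15 in 1 h and 0.05 in 4 h columns. Under the second reading the basal and deprived columns would set 1 h replenished against basal medium. The columns headed 1 h and 4 h would then set 4 h replenished against methionine-deprived cells.

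**Figure D4:**
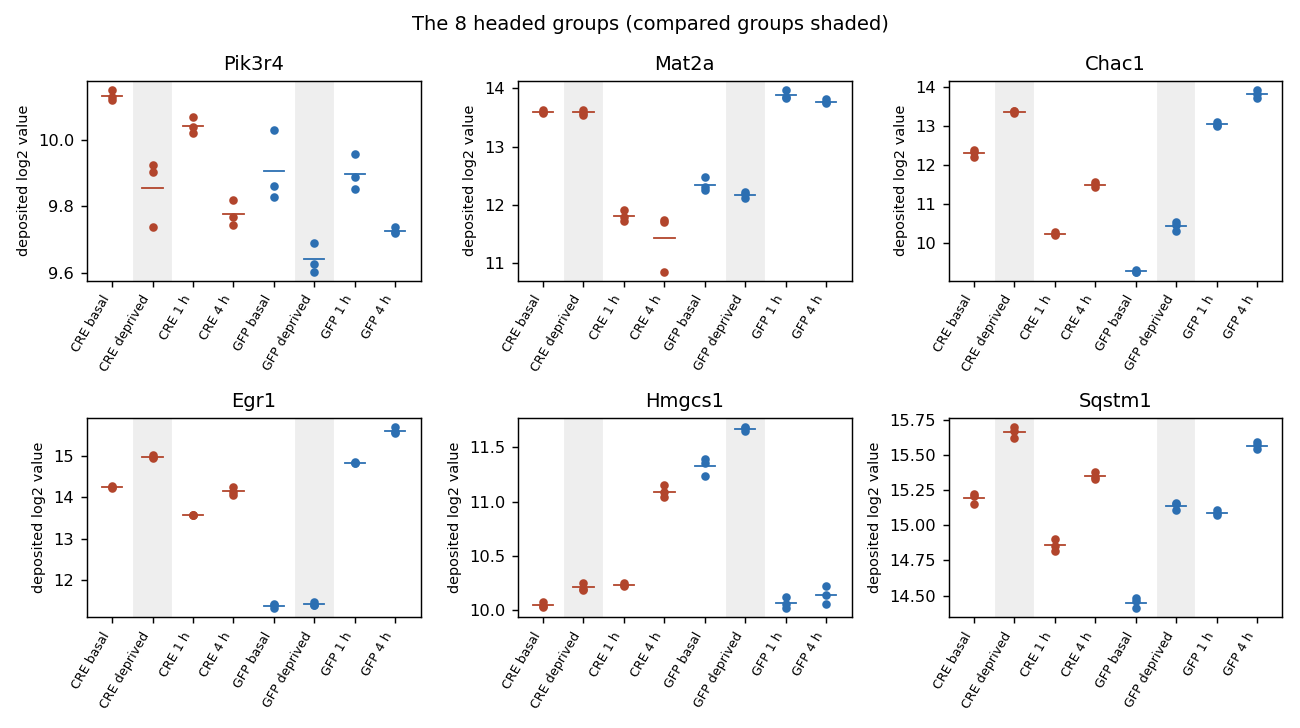
Points are the deposited log2 values of the 3 libraries of each headed group for 6 genes, with a bar at the group mean and the compared groups shaded. Chac1 and Mat2a are high in the CRE basal, CRE deprived, GFP 1 h and GFP 4 h columns and low in the other 4, and Hmgcs1 is low in the same 4 and also in CRE 1 h (10.23).

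The difference between the deprived and basal comparisons was tested directly. It passed 0.05 for 665 genes: for 450 (3.23% of tested genes) the CRE minus GFP difference was larger or less negative in the deprived columns, and for 215 (1.55%) it was smaller. This count varied with the libraries in the fit. It was 360 without GFP library 1, 421 without GFP library 2 and 777 without GFP library 3. It was 480 without CRE library 1, 424 without CRE library 2 and 436 without CRE library 3. Without CRE library 3 at 4 h it was 1080. The causes of these shifts were not tested. Early response genes held 24 of the 450 among 39 members. Junb was 0.82 ± 0.07 further apart in the deprived columns (limma adjusted p = 1.14e-09), Dusp5 by 0.73 and Egr1 by 0.70. Ccn1, a YAP target, differed by 0.77 in deprived and −0.01 in basal columns, an excess of 0.78 (adjusted p = 0.000101). Ribosome biogenesis genes held 13 of the 450 among 48 members, such as Rrp12 (0.33). In the other direction stood 14 of 57 ATF4 genes and 11 of 32 NRF2 genes. The cystine carrier Slc7a11 differed by 1.60 in deprived and 2.74 in basal columns, a change of −1.14 ± 0.18 (adjusted p = 0.00119). Trib3 changed by −0.71, Hmox1 by −0.59 (1.69 in deprived and 2.28 in basal columns) and Nqo1 by −0.63 (−1.23 in deprived and −0.60 in basal columns). By heading this is the dependence of the genotype difference on deprivation; under the second reading it is the dependence of the step between basal medium and 1 h of replenishment on genotype. Against the 1 h columns the same test passed for 9257 genes, 4599 higher and 4658 lower, a split that became 3660 and 6107 with libraries at a common median. Against the 4 h columns it passed for 9618 genes.

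Distances between whole profiles were compared next. The root mean square difference of group means over the tested genes was 0.403 between CRE deprived and GFP deprived. The group nearest to CRE deprived was GFP 4 h at 0.180, before CRE basal at 0.215. The group nearest to GFP deprived was GFP basal at 0.203, before CRE 4 h at 0.269. Each of the 2 compared groups was closer to several other groups than to its partner.

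**Figure D5:**
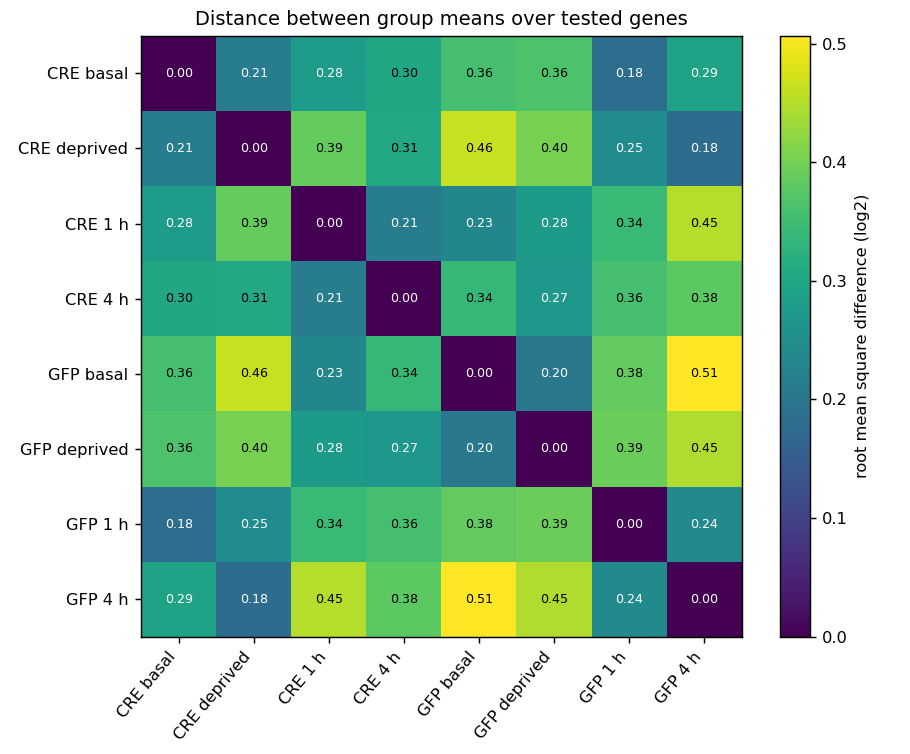
Each cell gives the root mean square difference in log2 units between the mean profiles of 2 headed groups over 13914 tested genes. CRE deprived is nearest to GFP 4 h (0.18) and 0.40 from GFP deprived.

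The second reading also names other columns as the genotype comparison in deprivation: those headed GFP 4 h, which would be Vps15KO, against those headed GFP 1 h, which would be WT, both methionine-deprived. In that pair 2489 genes were higher (17.9% of tested genes) and 2616 lower (18.8%). Of 51 interferon genes 49 were higher and 1 lower, with a median of 0.84. The chemokine Ccl5 averaged 11.46 in GFP 4 h and 8.69 in GFP 1 h columns (2.78, limma adjusted p = 8.77e-13), while under the deprived headings it differed by 0.02 (adjusted p = 0.877). Cxcl10 was higher by 2.58 and Oasl1, an antiviral OAS-like protein, by 2.42. Of 67 lysosome genes 35 were higher and 5 lower, and of 57 ATF4 genes 38 and 1. Of 41 matrix genes 27 were lower, led by Col3a1 (−1.09), as were 45 of 64 oxidative phosphorylation genes; the imprinted transcript H19 was lower at −1.63. Sqstm1 was higher by 0.48 (adjusted p = 4.4e-13), Chac1 by 0.78 and Hmgcs1 by 0.07, the last not called (adjusted p = 0.222). By heading these columns are instead WT cells at 2 times of replenishment.

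Read by heading, the livers of the series pose a related genotype question in another tissue. They differ from the MEFs in the source of Cre, the controls and the nutrient state. There, fed mice with Cre under the Ttr promoter and floxed Vps15 (Vps15LKO) were set against fed wt mice, 3 livers each, and 23.4% of 23875 tested genes were higher and 23.0% lower (edgeR quasi-likelihood test). All 12 of the largest MEF rises were tested there, and 10 were higher in Vps15LKO and 1, Nfil3, lower. Trib3 averaged 15.3 CPM in fed Vps15LKO against 3.55 in fed wt livers, and Myc 93.4 ± 9.68 against 18.3 ± 8.3 CPM (SD, n = 3 each). Of the 12 largest falls 8 were tested: Ccnb2, Cx3cl1 and Knstrn were higher, and 1 was lower. Hmgcs1 averaged 232 ± 48.0 CPM in fed Vps15LKO and 185 ± 53.1 CPM in fed wt livers, a log2 difference of 0.33 that did not pass (adjusted p = 0.149). In fasted livers it was higher, at 223 CPM in Vps15LKO against 76.4 in wt (1.55, edgeR adjusted p = 4.64e-06). Idi1 was also higher in fasted Vps15LKO livers (0.90, adjusted p = 0.0063), and Acat2 did not pass (0.32, adjusted p = 0.0893). In fed Vps15LKO livers Atf4 was lower (−0.61, edgeR adjusted p = 0.00622) and Asns higher (1.81, adjusted p = 0.00452). The fasted differences were 0.06 for Atf4 (edgeR adjusted p = 0.778) and 2.245 for Asns (adjusted p = 0.000583). The values stand side by side, and no test joined the tissues.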

How the data were processed

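Polyadenylated RNA of 24 MEF libraries was read from 1 table of log2 values that the authors deposited after a variance-stabilizing transformation of all libraries together; per the submitters' processing notes the tools were limma, DESeq2, featureCounts and STAR 2.7.10b on build mm10, and strand settings and filters are not given in the sources used here. Samples were grouped by column heading, and 0 columns were left out. Reversing the transformation gave whole counts (within 0.01) in 100% of values per library, which served for depth, CPM and the count-based alternatives. Over raw liver counts per gene, as deposited by the authors, edgeR was run with TMM scaling.

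The MEF values were fitted with limma 3.58.1 (trend, robust) with 8 group means over 24 libraries, keeping genes with a mean 1 or more over the table's minimum of 4.17. Fitting all groups gives a shared spread, from which standard errors come. P-values were adjusted by Benjamini-Hochberg over all tested genes, at 0.05. Replicate counts compared by chi-square gave, for each degree of freedom, 2.06 to 2.80 under CRE and 2.15 to 4.25 under GFP, where 1 is counting error alone, so the spread behind the p-values is small. All 32266 symbols matched RefSeq, which gave the coordinates. The steps were tested on simulated data.

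Named were Pik3r4, Mat2a, Atf4, Asns, Ddit3, Sqstm1, Odc1, Hmgcs1 and Cdkn1a; from each list its 4 members of smallest adjusted p, or the whole of a list of at most 15; and the 12 largest rises and 12 largest falls past 0.05 without overlap and with a higher mean at or above the median of tested genes. Symbols of the form Gm plus digits, Rik and LOC were left out. Not every gene so chosen is printed, 1 of the ranked falls is not reported here, and a few named in counts, motifs or the second reading fall outside the rule: these were picked once their values were known. The members and lists were chosen with earlier results of these data known. Alternatives were a common median, no filter, no trend, no robust step, only the compared libraries, the replicate number as a block, edgeR 4.0.16, DESeq2 1.42.0 and each compared library left out; leaving out CRE library 3 at 4 h was added after the data were seen.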

Additional observations from a re-analysis of the deposited data

Results flagged for a closer look

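For 15 of the 32 ranked or preselected genes, the CRE minus GFP difference in the columns headed methionine-deprived differed from that in the columns headed basal (limma interaction, adjusted p under 0.05). Over all tested genes 3.23% passed this test as higher and 1.55% as lower. Behind each mean stand 3 libraries, and 11 of the 15 differences were larger in size under deprivation. The ranked rises and falls were chosen for their size in the deprived columns, so a larger size there was favoured by the choice. All 12 ranked rises and all 12 ranked falls kept their sign in the basal columns.

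Among the rises, the excess in the deprived columns was 0.823 for Junb, 0.697 for Egr1, 0.623 for Plk2, 0.398 for Myc, 0.324 for Cdkn1a and 0.311 for Nfil3 on the log2 scale. The rise was smaller in the deprived columns for Trib3 (−0.713), Acot2 (−0.346), Sqstm1 (−0.221) and Asns (−0.216). Among the falls, the difference was more negative in the deprived columns for Slc5a3 (−0.714), Aldh3a1 (−0.644), Dkk2 (−0.319), Acat2 (−0.287) and D17H6S56E-5 (−0.217). Under the second reading of the headings these values compare the step between basal medium and 1 h of replenishment between Vps15KO and WT cells.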

How the results depend on the processing

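The count of 8717 genes for CRE against GFP in the deprived columns ranged over 8124 to 8238 when 1 of the 6 libraries was left out, and was 8364 with DESeq2, 8782 with edgeR, 9225 with only the compared libraries and 9135 without CRE library 3 at 4 h. The share called higher was 51.1% and became 39.7% with libraries at a common median (9031 genes). The test of the deprived against the basal difference was less stable: 665 genes became 419 without the filter, where more genes were tested, 1080 without CRE library 3 at 4 h, and 360 to 777 when 1 compared library was left out; the causes of the last were not tested. Against the 1 h and 4 h columns the leave-one-out counts were 8934 to 9039 and 9312 to 9372. Of 168 named genes called, 9 lost the call under at least 1 of 15 alternatives (Actg2, ATP8, Cd14, COX3, Lum, Pdgfrb, Smtn, Tnnc2 and Twist1), 10 others gained one, and 0 reversed. Deviations from the group means in same-numbered CRE and GFP libraries had correlations of −0.0031, 0.0053 and 0.067. Correlations over all tested genes cannot tell whether the numbers pair libraries for part of the genes. With the replicate number as a block 8800 genes passed, with no named call changed. For the deprived against basal difference 909 passed with the block and 665 without it. With at least 20403779 counts per library, the chi-square per degree of freedom between libraries of 1 group was 2.06 to 2.80 under CRE and 2.15 to 4.25 under GFP, where 1 is counting error alone; how depth and the number of libraries each limit precision was not tested.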
